A study of Homo sapiens with 4 samples.

Results

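The genes described here are 10 histone lysine demethylases of the Jumonji family, which need molecular oxygen for catalysis: KDM2A, KDM2B, KDM3A, KDM3B, KDM4A, KDM4B, KDM4C, KDM5A, KDM5B and KDM6B. They were taken by gene symbol from the deposited table of read counts, which has 1 row per RefSeq mRNA accession and 14540 rows of 12154 genes in all. Of the 10 genes 9 had at least 1 row, 10 rows together, and KDM4C was not analysed here. Where a gene had several rows, the row with the highest count summed over the libraries was used. All 9 genes passed the filter on low counts.

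Polyadenylated RNA came from PLC/PRF/5 cells, an established human hepatocellular carcinoma line, grown in high-glucose medium. The 2 control libraries are labelled NC and the 2 knockdown libraries shUSP22, after lentiviral interference with USP22, the ubiquitin protease of the SAGA coactivator complex. All 4 cultures spent 48 h in a gas mix of 1% oxygen and 5% carbon dioxide, so both groups were hypoxic and no normoxic library was analysed here. The labels do not say what the control virus carried, whether 1 or more hairpins were used, or whether replicates were separate cultures. The p-values therefore set the difference between groups only against the spread among these libraries within a group, which may be technical.

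Jumonji demethylases are dioxygenases that bind iron and use oxygen and 2-oxoglutarate to hydroxylate a methyl group on a histone lysine, which is then lost as formaldehyde. Succinate is the other product, and succinate, fumarate and 2-hydroxyglutarate compete with 2-oxoglutarate. The KDM2 enzymes act mainly on methylated H3K36, KDM3 on H3K9, KDM4 on H3K9 and H3K36, KDM5 on H3K4, and KDM6 on H3K27. Several of these genes, KDM3A and KDM4B among them, are known to be induced by the hypoxia-inducible factors in liver and other cancer cells.

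Library totals ranged from 15027209 to 17194929 counts. USP22 itself had 2937 and 2573 CPM (counts scaled to a common library size with TMM factors) in control libraries and 359.5 and 447.4 CPM in the knockdowns. That left 14.6% of the control level (log2 fold change −2.77 ± 0.17, SE, adjusted p = 1.36e-06). The hepatocyte markers APOB and TF, named because they had the highest mean CPM of the 11 listed, had 10211 ± 2001 and 16694 ± 469 CPM in control cells (SD, n = 2). The markers of that list differed widely. Averaged over all libraries, HNF4A had 0.735 CPM, SERPINA1 20.8 CPM, ALB 683.5 CPM and APOB 16144.5 CPM. APOB rose in the knockdown (log2 fold change 1.11, adjusted p = 0.00252), and 5 of the 11 hepatocyte and liver cancer markers rose in all, with 0 lower. Of all tested rows 8.49% were higher and 10.2% lower. Of 12 markers of leukocytes, endothelium and fibroblasts 7 had a row. Their summed level was 57.0 and 70.9 CPM in the controls and 67.2 and 57.9 CPM in the knockdowns, so the groups overlapped. The endothelial adhesion gene PECAM1 was the single member of that list to rise (log2 fold change 1.02, adjusted p = 0.0185), and it lost the call without control replicate 2 (adjusted p = 0.137; 12 alternatives gave 0.000208 to 0.137). Its part in the results was not tested.

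In the knockdown, KDM4B and KDM6B fell and no member rose. KDM4B, which removes methyl groups from H3K9 and H3K36, fell 2.42-fold, and KDM6B, which removes them from H3K27, fell 1.73-fold. The other 7 genes did not pass the test, edgeR's quasi-likelihood test with a Benjamini-Hochberg adjusted p under 0.05 over all 12337 tested rows. In bulk RNA a lower level per cell and fewer cells expressing a gene cannot be told apart. Of the 9 genes 2 were lower (22.2%), where 10.2% of all tested rows were lower and 8.49% higher. With 9 genes this share rests on 2 calls. Log2 fold changes were below 0 for 7 of the 9 genes, against 50% of all tested rows, with a median of −0.33 against 0.00074 over all tested rows. Knockdown and control libraries did not overlap for 6 of the 9 genes, 5 lower and 1 higher. Of all tested rows 59.6% had groups that did not overlap, 30.3% lower and 29.3% higher. The total of 6 of 9 is near the share of all rows. Without control replicate 2 the call of KDM6B was lost, which left KDM4B as the single member called lower.

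**Figure D1:**
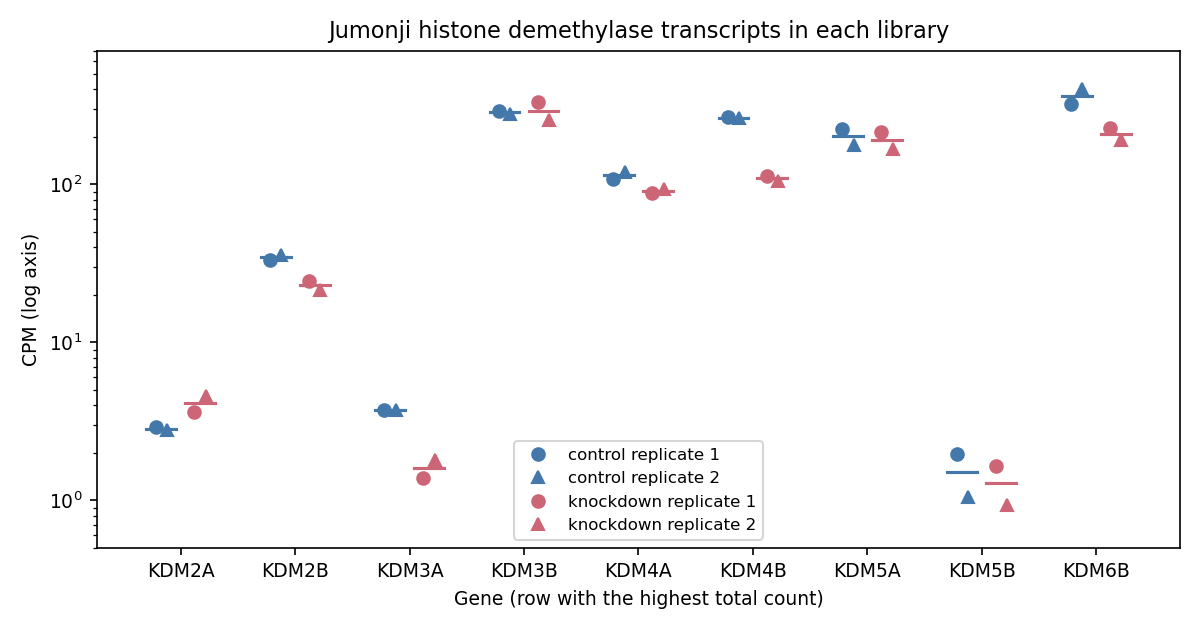
CPM on a log axis for the 9 genes with a row, each library as a point (circle replicate 1, triangle replicate 2) and the group mean as a line. KDM4B lies at 266.3 and 261.1 CPM in the controls and 113.2 and 104.6 CPM in the knockdowns, while the 4 points of KDM2A, KDM3A and KDM5B each lie below 5 CPM.

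KDM4B is a demethylase of trimethylated H3K9 and H3K36. Its row (NM_015015.2) held 4218 and 4222 counts in the controls and 1712 and 1796 counts in the knockdowns, which is 266.3 and 261.1 CPM against 113.2 and 104.6 CPM. Both knockdown libraries lay well below both control libraries, and within each group the 2 libraries differed little. The mean fell from 264 ± 3.70 to 109 ± 6.08 CPM (SD, n = 2 per group), or 41.3% of the control level. The log2 fold change was −1.28 ± 0.16 (SE; 95% interval −1.63 to −0.93; adjusted p = 0.000189). Of all tested rows, 8.70% had a lower log2 fold change. The call held in each of 12 alternatives, with log2 fold changes from −1.30 to −1.21. The authors' deposited table gives −1.26 with a q-value of 2.05e-20 for this row.

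KDM4A, its closest paralog in the table and active on the same marks, had 108.1 and 119.96 CPM in the controls and 87.6 and 93.9 CPM in the knockdowns. Both knockdown values were the lower ones, but the log2 fold change of −0.33 ± 0.17 did not pass (95% interval −0.70 to 0.04, adjusted p = 0.209). Of its 4474 bases, 464 overlap an antisense gene, KDM4A-AS1, and 2077 overlap a gene model on the same strand, so its counts may hold reads of these. The ratio of KDM4A to KDM4B within a library, which no scaling affects, was 0.406 and 0.459 in the controls and 0.774 and 0.898 in the knockdowns. KDM4A had the lower CPM in every library, and in knockdown cells the CPM values of these genes were closer. The log2 ratio was higher in the knockdown by 0.949, with an SD of 0.139 within groups and no overlap between them. An exact two-sided permutation test gave p = 0.333, the smallest that 2 against 2 libraries allow, and 0.444 after adjustment over the 4 paralog ratios that could be computed.

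The promoters of these paralogs and of KDM6B are shown because KDM4B is known as a target of hypoxia-inducible factors and these 3 genes had well-counted rows. KDM3B and KDM5A had well-counted rows too, and their windows are described below but not shown. Each line gives the 250 bases before a RefSeq gene start, 5′ to 3′ on the plus strand of GRCh38.p14, with the core of the hypoxia response element, ACGTG or GCGTG on either strand, in capitals.
KDM4B, chr19:4968863-4969112: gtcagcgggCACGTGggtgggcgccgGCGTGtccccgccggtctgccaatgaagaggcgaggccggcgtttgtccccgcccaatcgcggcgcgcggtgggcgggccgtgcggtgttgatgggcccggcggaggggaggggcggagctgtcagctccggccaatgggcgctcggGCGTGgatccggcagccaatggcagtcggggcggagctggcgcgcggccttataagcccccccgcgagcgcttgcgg
KDM4A, chr1:43649899-43650148: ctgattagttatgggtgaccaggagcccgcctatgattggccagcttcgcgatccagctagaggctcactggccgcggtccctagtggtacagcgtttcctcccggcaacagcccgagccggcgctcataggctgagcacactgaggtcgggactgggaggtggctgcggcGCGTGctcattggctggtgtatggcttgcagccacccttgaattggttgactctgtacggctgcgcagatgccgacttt
KDM6B, upstream start, chr17:7833967-7834216: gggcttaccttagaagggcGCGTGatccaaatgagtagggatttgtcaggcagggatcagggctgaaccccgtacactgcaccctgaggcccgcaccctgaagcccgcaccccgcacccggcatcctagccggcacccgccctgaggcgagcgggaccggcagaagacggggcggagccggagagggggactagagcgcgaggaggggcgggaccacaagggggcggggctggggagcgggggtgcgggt
The KDM4B window held 4 matches, which begin 241, 240, 224 and 77 bases before the start. The first 2 are the overlapping strands of CACGTG, which is also the E-box bound by MYC and other factors. KDM4A had 1 match, 79 bases before the start, and so did the upstream start of KDM6B, 231 bases before it. A second KDM6B start, where the counted transcript NM_001080424.1 begins, had none in its window.

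Such a short core is common, so these matches describe the sequence and not binding. Of all 35116 promoter windows given by RefSeq, 43.2% held at least 1 match and 19.4% at least 2. Among windows of genes with a tested row the shares were 55.2% and 26.9%. All 10 listed genes matched the table, with 16 windows, of which 12 held a match and 4 held more than 1. KDM3B had no match in its single window, and KDM5A had 1, 154 bases before the start. KDM2A, whose row of 225 counts did not pass the test, had 3 matches in 1 of its windows. The counted transcripts of KDM3B, KDM5A and KDM2A were not found to begin at their windows. GC content, on which chance matches depend, was 75.6% in the KDM4B window, 70.4% in the one shown for KDM6B and 61.2% in that of KDM4A. The median was 58% over all windows and 64.8% over those of genes with a tested row, so the KDM4A window lay between these medians.

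KDM6B, also called JMJD3, removes trimethylation of H3K27, the mark laid down by Polycomb repressive complex 2. Its row (NM_001080424.1) held 5088 and 6525 counts in the controls and 3426 and 3291 counts in the knockdowns. In CPM these were 321.2 and 403.5 against 226.5 and 191.6, so both knockdown libraries were below both control libraries, and control replicate 2 was the highest of the 4. The mean fell from 362 ± 58.2 to 209 ± 24.6 CPM (log2 fold change −0.79 ± 0.17, 95% interval −1.17 to −0.42, adjusted p = 0.00669). Without control replicate 2 the log2 fold change was −0.60 and did not pass (adjusted p = 0.093; 12 alternatives gave 2.64e-07 to 0.093). The authors' deposited table gives −0.78 with a q-value of 5.06e-06. No exon of another gene overlapped this transcript or that of KDM4B in the GENCODE 29 annotation.

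KDM3A and KDM3B remove mono- and dimethylation of H3K9. KDM3B (NM_016604.3) was among the most highly counted of the 9 genes and did not pass, with 292.5 and 279.4 CPM in the controls and 330.8 and 253.5 CPM in the knockdowns. Its groups overlapped, since the knockdown libraries lay on either side of the controls. The log2 fold change was 0.03 ± 0.17, and the 95% interval, −0.34 to 0.40, does not include a decrease as large as that of KDM4B (adjusted p = 0.927).

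KDM3A (NM_018433.5) had far fewer counts, 59 and 60 in the controls and 21 and 31 in the knockdowns, or 3.73 and 3.71 CPM against 1.39 and 1.81 CPM. Both knockdown libraries were below both controls. Its log2 fold change, −1.21 ± 0.46, was close in size to that of KDM4B but did not pass after adjustment (95% interval −2.21 to −0.22, unadjusted p = 0.0207, adjusted p = 0.0873). Over 11 alternatives the log2 fold change lay between −1.41 and −1.001, and the adjusted p between 0.0557 and 0.279. The authors' deposited table gives −1.20 with a q-value of 0.0648. The ratio of KDM3A to KDM3B was 0.0127 and 0.0133 in the controls and 0.00420 and 0.00712 in the knockdowns, lower by 1.25 on the log2 scale. Those groups did not overlap either (exact permutation p = 0.333, adjusted 0.444).

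**Figure D2:**
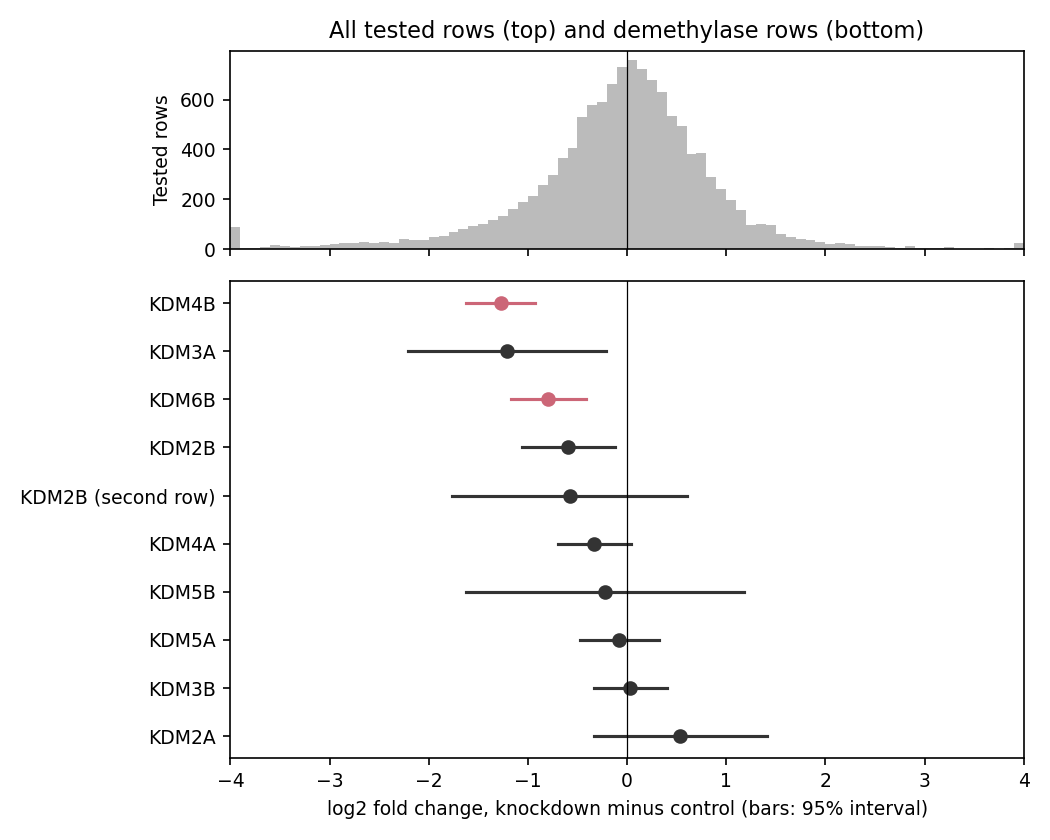
Log2 fold changes, knockdown minus control. The upper panel counts all tested rows in bins of 0.1, with values beyond 4 in the outermost bins, and the lower panel shows the 10 demethylase rows with 95% intervals, in red where the adjusted p was under 0.05. KDM4B (−1.28) and KDM6B (−0.79) are red, KDM3A (−1.21) has a wide interval, and KDM3B and KDM5A lie near 0.

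KDM2A and KDM2B demethylate H3K36 and bind unmethylated CpG islands through a zinc finger. The main row of KDM2B (NM_032590.4) had 33.3 and 35.9 CPM in the controls and 24.5 and 21.5 CPM in the knockdowns. Both knockdown values were the lower, and the log2 fold change of −0.59 ± 0.22 did not pass (95% interval −1.06 to −0.12, unadjusted p = 0.0178, adjusted p = 0.079). With the replicate number as a block the adjusted p was 0.024, over a range of 0.024 to 0.325 in 12 alternatives. The authors' deposited table gives −0.57 and a q-value of 0.0227, so KDM2B is one of 3 members with a q-value under 0.05 there, the others being KDM4B and KDM6B.

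A second KDM2B row (NM_001005366.1) had 28 and 42 counts in the controls and 23 and 24 in the knockdowns. The log2 fold change was −0.58 ± 0.55, near that of the main row, with an interval from −1.76 to 0.60 (adjusted p = 0.52). Of the transcript behind the main row, 439 bases overlap exons of RNF34 and 193 those of the long noncoding RNA AC145422.1, both on the opposite strand. Of its 491 unshared bases, 178 lie in the first overlap and 193 in the second. The libraries do not mark strand, so reads of these genes cannot be told apart there. RNF34 had 2.65 and 4.205 CPM in the controls and 1.65 and 1.69 CPM in the knockdowns, and it did not pass (log2 fold change −1.03, adjusted p = 0.16).

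KDM2A (NM_001256405.1) was the one member whose knockdown libraries both lay above the controls, with 46 and 45 counts in the controls and 55 and 79 in the knockdowns. In CPM these were 2.90 and 2.78 against 3.64 and 4.60. The log2 fold change of 0.53 ± 0.40 did not pass (95% interval −0.34 to 1.41, adjusted p = 0.403). The ratio of KDM2A to KDM2B was 0.0871 and 0.0776 in the controls and 0.149 and 0.214 in the knockdowns, higher by 1.12 on the log2 scale (exact permutation p = 0.333, adjusted 0.444).

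KDM5A and KDM5B remove trimethylation of H3K4, the mark of active promoters. KDM5A (NM_001042603.2) had 225.1 and 178.5 CPM in the controls and 214.7 and 167.3 CPM in the knockdowns, with overlapping groups. Its log2 fold change was −0.08 ± 0.18 (95% interval −0.48 to 0.32, adjusted p = 0.818), so a decrease of the size seen for KDM4B lies outside the interval. Of its transcript, 182 of 10763 bases overlap exons of CCDC77 on the opposite strand. KDM5B (NM_001314042.1) had 31 and 17 counts in the controls and 25 and 16 in the knockdowns. At this depth no difference could be detected, with a log2 fold change of −0.22 ± 0.65 and an interval from −1.63 to 1.18 (adjusted p = 0.858). The KDM5A to KDM5B ratio ranged from 115.0 to 179.6 over the 4 libraries, with overlapping groups (exact permutation p = 0.667, adjusted 0.667).

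**Figure D3:**
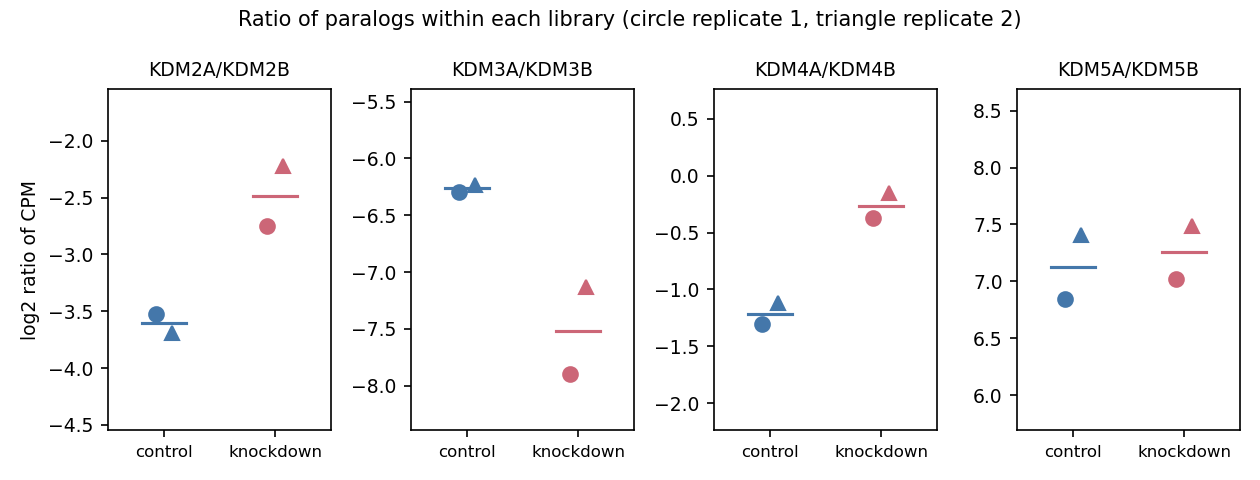
Log2 ratio of CPM between paralogs in each library, with the group mean as a line and an axis of the same span in each panel. The groups do not overlap for KDM2A/KDM2B, KDM3A/KDM3B and KDM4A/KDM4B and overlap for KDM5A/KDM5B, and 2 against 2 libraries allow no p below 0.333. Such separation is common: among single tested rows, 59.6% had groups that did not overlap, and no share over other ratios was computed. The rows of KDM2A and KDM3A held only 225 and 171 counts.

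The transcripts behind the rows differed widely in how many bases they share with other transcripts of the same gene. For KDM3B, KDM4A, KDM4B, KDM5A and KDM6B the counted transcript shared no base with another RefSeq-linked transcript of its gene in GENCODE 29. These 5 rows held 6589 to 18508 counts over the 4 libraries. For KDM2A, KDM3A and KDM5B only 323, 297 and 108 bases were unshared (8.85%, 6.08% and 1.66% of the transcript), and the rows held 225, 171 and 89 counts. The RefSeq gene list gives 4 mRNA accessions for KDM4B and 2 for KDM6B, so sharing depends on the annotation used. The main KDM2B row had 491 unshared bases and 1847 counts. Whether counting discarded shared reads is not given in the labels, and its part in the low counts was not tested. The standard errors of log2 fold changes were 0.162 to 0.219 for the 6 genes with a mean of at least 20 CPM, a limit chosen after the values were seen, and 0.405 to 0.651 for the other 3. Both calls were among those 6, and of all tested rows at or above that limit 13.7% were lower, against 8.09% of those under it.

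Per kilobase of transcript, KDM6B had the highest level in control cells, 53.98 ± 8.66 CPM per kb, ahead of KDM4B with 47.1 ± 0.66. These neighbours differed by less than the sum of their SDs. KDM3B followed with 41.97 ± 1.36, KDM4A with 25.5 ± 1.88 and KDM5A with 18.7 ± 3.06 CPM per kb, each gap being larger than the SDs. In knockdown cells KDM3B was highest with 42.9 ± 8.02 CPM per kb, then KDM6B with 31.1 ± 3.67 and KDM4A with 20.3 ± 0.991. KDM4B moved from the second place to the fourth, at 19.5 ± 1.09 CPM per kb. By the SDs it could not be told there from KDM4A or from KDM5A, at 17.7 ± 3.12. The KDM4A level uses all 4474 bases, of which 2077 overlap a gene model on the same strand and 464 an antisense gene. Whether reads there were added or discarded was not tested. The levels of KDM2A, KDM2B, KDM3A and KDM5B were 0.231 to 7.53 CPM per kb in control cells. Their rows come from transcripts with few unshared bases, so these genes were not ranked with the others.

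Other Jumonji genes of chromatin were lower or did not pass as well. Of 13 listed 9 were tested, 2 fell, 0 rose and the other 7 missed the threshold. Over all tested rows 10.2% were lower and 8.49% higher, and each list below is to be read beside these shares. A list of 7 to 10 tested genes with 1 call is near them. The median log2 fold change was −0.40. KDM7A, a demethylase of H3K9 and H3K27, fell from 92.7 and 73.2 CPM in control to 30.3 and 21.9 CPM in the knockdowns, a 3.18-fold decrease (log2 fold change −1.67 ± 0.22, adjusted p = 0.000272). JMJD6, a lysyl hydroxylase, fell from 33.9 and 31.2 to 13.9 and 22.3 CPM (−0.84 ± 0.26, adjusted p = 0.037). Its call was lost without either control library or without knockdown replicate 1, over a range of 0.000677 to 0.22 in adjusted p in 12 alternatives.

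The flavin-dependent demethylases, which use FAD in place of iron, and their CoREST partners had 1 of 5 genes lower. The share over all tested rows was 10.2%. That gene was RCOR1, a CoREST scaffold, with 151.0 and 145.9 CPM in the controls and 97.5 and 81.9 CPM in the knockdowns (log2 fold change −0.73, adjusted p = 0.0108). Without control replicate 1 it did not pass (adjusted p = 0.0703; 12 alternatives gave 2.06e-05 to 0.0703).

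Among the methyltransferases that write these marks and their cofactors, 23 were tested, of which 3 rose, 1 fell and 19 missed the threshold. The median log2 fold change was 0.35. SETD1B, an H3K4 methyltransferase, rose from 48.7 and 84.1 CPM to 145.6 and 146.1 CPM (1.14 ± 0.23, adjusted p = 0.00406). EHMT1, which methylates H3K9, rose from 49.6 and 61.5 to 97.8 and 101.9 CPM (0.85 ± 0.19, adjusted p = 0.00688). SETD2, which trimethylates H3K36, rose from 110.7 and 111.4 to 210.7 and 158.98 CPM (0.73 ± 0.18, adjusted p = 0.0126). SMYD2, a lysine methyltransferase, fell from 213.0 and 234.6 to 147.2 and 166.0 CPM (−0.51 ± 0.16, adjusted p = 0.0436).

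Some of these calls were lost when a library was left out, though the changes kept their direction. The log2 fold change without control replicate 1 was 0.70 for EHMT1 and 0.73 for SETD2. Without control replicate 1 neither EHMT1 (adjusted p = 0.0975, range 3.37e-06 to 0.0975) nor SETD2 (0.0565, range 1.50e-05 to 0.0565) passed. SMYD2 was lost without either control library, without knockdown replicate 1 and without the filter on low counts (range 0.0021 to 0.293). By mark, 1 of 10 tested H3K4 genes, 1 of 4 H3K9 genes and 1 of 7 H3K36 genes rose, against 8.49% of all tested rows. The 2 tested H3K27 genes, SUZ12 and EED, did not pass, and EZH1 and EZH2, also listed, were not tested. SUZ12 averaged 9.82 ± 1.20 CPM in the controls against 10.5 ± 1.03 CPM in the knockdowns. EED was barely counted, with 21 and 23 reads in the controls against 10 and 0 in the knockdowns. EED passed without knockdown replicate 1, where the remaining knockdown library held 0 counts (adjusted p = 0.0166; 11 alternatives gave 0.0166 to 0.632). The difference between erasers and writers was not tested.

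**Figure D4:**
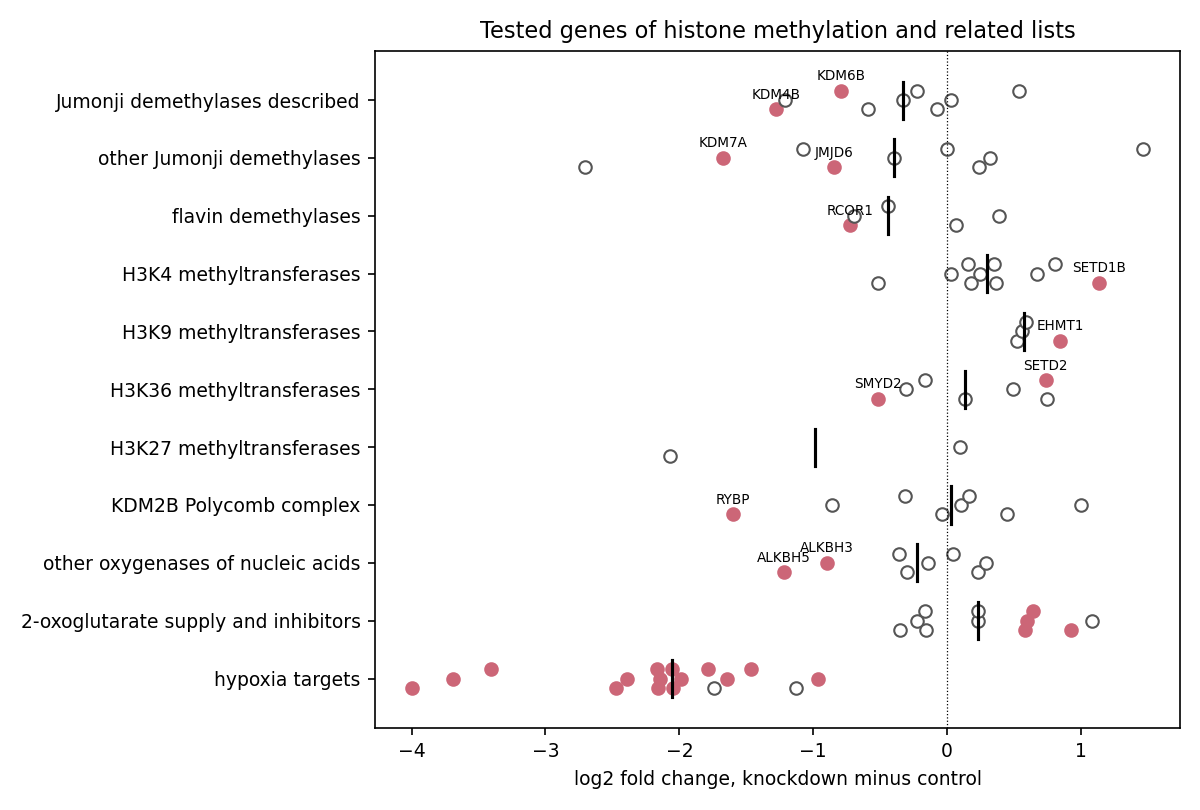
Log2 fold changes of all tested genes by list, filled where the adjusted p was under 0.05, with the list median as a black line. Outside the hypoxia targets, the filled points of the Jumonji, flavin and nucleic acid lists lie to the left of 0. Those of the 2-oxoglutarate list lie to the right, while the H3K36 methyltransferases have 1 on each side. The filled point of the flavin list is RCOR1, a CoREST scaffold and not a demethylase.

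KDM2B brings a variant Polycomb repressive complex 1 to CpG islands. Of 8 tested partners 1 fell and 0 rose, where 10.2% of all tested rows fell. RYBP, which stimulates the ubiquitin ligase of this complex, fell from 245.7 and 287.0 CPM to 109.9 and 65.7 CPM (log2 fold change −1.60 ± 0.22, adjusted p = 0.000347).

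Demethylases of nucleic acids that share the iron and 2-oxoglutarate chemistry had 2 of 8 tested genes lower and 0 higher. Of all tested rows 10.2% were lower. ALKBH5, which removes N6-methyladenosine from RNA, fell from 657.96 and 649.4 CPM to 286.5 and 276.1 CPM (−1.22 ± 0.15, adjusted p = 0.000164), a change close in size to that of KDM4B. ALKBH3 fell from 43.8 and 35.2 to 21.2 and 21.2 CPM (−0.90 ± 0.22, adjusted p = 0.013). Without control replicate 1 it did not pass (adjusted p = 0.141; 12 alternatives gave 0.00025 to 0.141).

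Enzymes that make or use 2-oxoglutarate and the competing metabolites had 4 of 11 tested genes higher and 0 lower. Of all tested rows 8.49% were higher. The median log2 fold change of the list was 0.23. FH, which consumes fumarate, rose from 409.6 and 401.2 CPM to 582.3 and 645.2 CPM (0.60 ± 0.15, adjusted p = 0.0151). IDH3B, a subunit of the mitochondrial isocitrate dehydrogenase that makes 2-oxoglutarate, rose from 11.5 and 8.04 to 17.9 and 19.2 CPM (0.92 ± 0.28, adjusted p = 0.0331). Another subunit of that enzyme, IDH3A, was named after its values were seen (0.58 ± 0.16, adjusted p = 0.0254).

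Each of the increases of FH, IDH3B and IDH3A failed to pass without at least 1 library. FH was lost without either control library (highest adjusted p 0.0924) and IDH3B without control replicate 2 or knockdown replicate 2 (0.22). IDH3A was lost without either control library or knockdown replicate 2 (0.146), and over 12 alternatives its adjusted p ranged from 0.000348 to 0.146.

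Of the 20 genes listed as induced by hypoxia 17 were tested, 15 fell, 0 rose and the other 2 missed the threshold. Their median log2 fold change was −2.05. The largest decreases were those of the glycolytic enzyme ENO2 (−3.997), the collagen crosslinking enzyme LOX (−3.69) and the hexokinase HK2 (−3.40, and −3.999 without knockdown replicate 1). The decrease of KDM4B (−1.28) was smaller than the median of that list. These lists and the demethylases were measured in the same libraries, and whether their changes are linked was not tested.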

How the data were processed

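The authors deposited 1 table of raw counts per RefSeq mRNA accession for 4 libraries, together with the p-value, q-value and log2 fold change of their own comparison. Named without a role in the submitters' processing notes are the build hg19, HTSeq, HISAT2 2.1.0 and bcl2fastq. Per the labels' protocols, libraries came from 1 ug of total RNA with the NEBNext Ultra RNA kit, known as a non-directional kit that leaves strand unmarked. The counting rule and the test behind the deposited p-values are not stated in any source used here.

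Rows were kept by filterByExpr (minimum count 10), which left 12337 of 14540. Knockdown was compared with control by edgeR 4.0.16 (glmQLFit and glmQLFTest, TMM, no covariate, R 4.3.3), adjusted by Benjamini-Hochberg over all tested rows. The common biological coefficient of variation was 22.1%. Replicate libraries differed beyond counting noise (chi-square per degree of freedom 17.0 and 31.3). Alternatives included DESeq2 1.42.0, limma-voom 3.58.1, other scalings and filters, rows summed per gene, a replicate block and leaving out each library. Accession sharing, lengths and overlaps came from GENCODE 29 and promoters from RefSeq, both on GRCh38. No sequence other than promoters was read.

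The genes and lists were chosen with earlier results of these data known. All demethylases are named. Of each other list the text names up to 3 called genes per direction with the largest change, or the 2 with the highest mean where none passed. One called gene of these lists is counted but not reported here by name.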

Additional observations from a re-analysis of the deposited data

How the results depend on the processing

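With 2 libraries per group, changes near 1.5-fold and rows under 100 counts are poorly resolved. The calls of KDM4B and USP22 held in all 12 alternatives. Without control replicate 2 KDM6B had −0.60 (range without a library −0.94 to −0.60) and was not called, so the number of members called lower was 1 there and 1 to 2 over the fits without a library. With the replicate block KDM2B passed (log2 fold change −0.59, adjusted p = 0.024), the genes called lower numbered 12, against 7, among the 64 tested genes of the chromatin, oxygenase and 2-oxoglutarate lists (without the 9 demethylases, the hypoxia targets and the markers), and all rows called higher 1672, against 1047. The labels share replicate numbers but say nothing of a pairing, and the deviations of same-numbered libraries correlated with r = 0.112, so the block is not taken as a pairing. Without a library, all rows called higher ranged from 685 (without control replicate 1) to 1340. Among those 64 genes, calls lower ranged from 3 to 7 and calls higher from 3 to 7, also against 7, and both were 3 without control replicate 1. Calls higher among them numbered 4 without control replicate 2.

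Uncalled log2 fold changes crossed 0 when 1 library was left out, and the cause was not tested. KDM3B ranged from −0.14 (without knockdown replicate 1) to 0.22, and SUZ12 from −0.0045 (without control replicate 2) to 0.23. KDM5A ranged from −0.23 to 0.10, KDM5B from −0.65 to 0.29 and the difference in the KDM5A to KDM5B log2 ratio from −0.15 to 0.41, and without control replicate 1 or knockdown replicate 2 their sign differed from that with all libraries. Without knockdown replicate 2 they were 0.099, 0.15 and −0.11. The filter of 5 CPM left KDM2A, KDM3A and KDM5B without a value, and the ratio of KDM4C to KDM4B was not run.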
